A study of Mus musculus with 2 samples.

Results

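The chemokine module comprised 60 of the 32245 gene symbols in the count matrices and was chosen by symbol alone: every Ccl, Cxcl, Ccr and Cxcr gene with a number, together with Cx3cl1, Cx3cr1, Xcl1, Xcr1 and the atypical receptors Ackr1 to Ackr4. It held 38 ligands, 18 signalling receptors and 4 atypical receptors. The symbol rule uses no measured value. Of the 60 members, 45 had at least 10 molecules in the cells of back skin and 43 in those of the preputial gland (PG).

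Chemokines are small secreted proteins that bind G protein-coupled receptors and direct the movement of leukocytes along gradients. The CC and CXC ligands are named after the spacing of their first cysteines, and most receptors bind several ligands. Homeostatic ligands guide cells through lymphoid organs and resting tissue, inflammatory ligands are induced by cytokines and microbial products, and atypical receptors bind chemokines without G protein signalling and act as scavengers or transporters. In skin, keratinocytes, dermal fibroblasts, endothelial cells and resident leukocytes all serve as sources.

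The study compared sebocytes of skin sebaceous glands with those of the PG, a sebaceous-like gland of male rodents, and whole dissociated tissue was sequenced, so the immune and stromal cells of both were also captured. Each tissue gave 1 droplet-based 3′ RNA library from the pooled tissue of 3 male wild type C57BL/6 mice aged 52 weeks, with no treatment named in the labels. Back skin was taken as biopsies and the glands were dissociated whole. The matrices list 6794880 barcodes for skin and 737280 for PG, of which 77142 are in both, although the labels name the same kit for both. Whether the chemistry or its setting in processing differed is not given in the sources used here, and such a difference cannot be told apart from the tissue in any ratio of PG over skin. With 1 library per tissue the mouse-to-mouse spread is unknown, tissue and library cannot be told apart, and no test between tissues was possible. All intervals below are 95% intervals for counting error only.

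Cells were barcodes with at least 500 genes, at least 1000 unique molecular identifiers (UMIs) and at most 10% mitochondrial UMIs, which gave 8899 cells with a median of 2386 UMIs in skin and 4699 with a median of 2729 in PG. They were assigned to cell classes by marker genes that contained no member of the module. In skin the classes held 3736 basal, 1389 suprabasal and 490 upper follicle and sheath keratinocytes, 749 hair matrix cells, 45 sebocytes and 928 fibroblasts. They also held 117 macrophages or monocytes (called macrophages below), 68 blood endothelial cells, 64 T cells, 40 dendritic or Langerhans cells (called dendritic below) and 16 lymphatic endothelial cells. In PG they held 1905 basal, 132 suprabasal and 528 upper follicle keratinocytes, 696 sebocytes, 559 fibroblasts, 155 macrophages, 51 blood endothelial cells, 20 T cells and 16 dendritic cells. No PG cell entered the hair matrix class. The name upper follicle refers to the markers of the gate, of which 5 of 6 had UMIs in that PG class. It does not establish that these PG cells belong to a follicle. The classes are ranges on marker counts: 12.6% of the basal class in skin and 31.7% in PG sat at the smallest number of markers that passed, and the median content of basal markers was 217 and 50.4 per 10000 UMIs, so this class was not equal in marker level between tissues. The share at the smallest number was 5.90% and 49.2% in suprabasal cells and 35.6% and 47.0% in sebocytes (skin and PG). In upper follicle cells it was 25.7% and 14.4%. Levels are counts per 1000000 UMIs of a class (CPM). Because each UMI counts 1 molecule at its 3′ end, gene length does not enter, and the comparisons are made for the same gene between classes and tissues.

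Of the 60 members, 41 reached 10 UMIs in both tissues, 4 in skin alone and 2 in PG alone. This minimum was the same for 27407186 UMIs in skin cells and 15270076 in PG cells, and detection was not counted over all genes. At least 30 UMIs in either tissue, the minimum for describing a member with values, were reached by 42. The other 18 had at most 18 UMIs in a tissue, and 5 of these (Ccl21b, Ccl21c, Ccl26, Cxcl15 and Cxcr1) had none in either tissue. A class of at least 15 cells with at least 5 UMIs in at least 3 cells and the highest CPM was called the leading class. It could be given for 39 of the 42 in skin and 37 in PG, and was the same in 24 of the 34 members that had one in both. No such count was made over all genes. The interval of the leading class lay apart from that of the next class for 23 of the 39 in skin and 17 of the 37 in PG. For the others the intervals overlapped, so the lead is within counting error, or no second class reached the minimum.

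**Figure D1:**
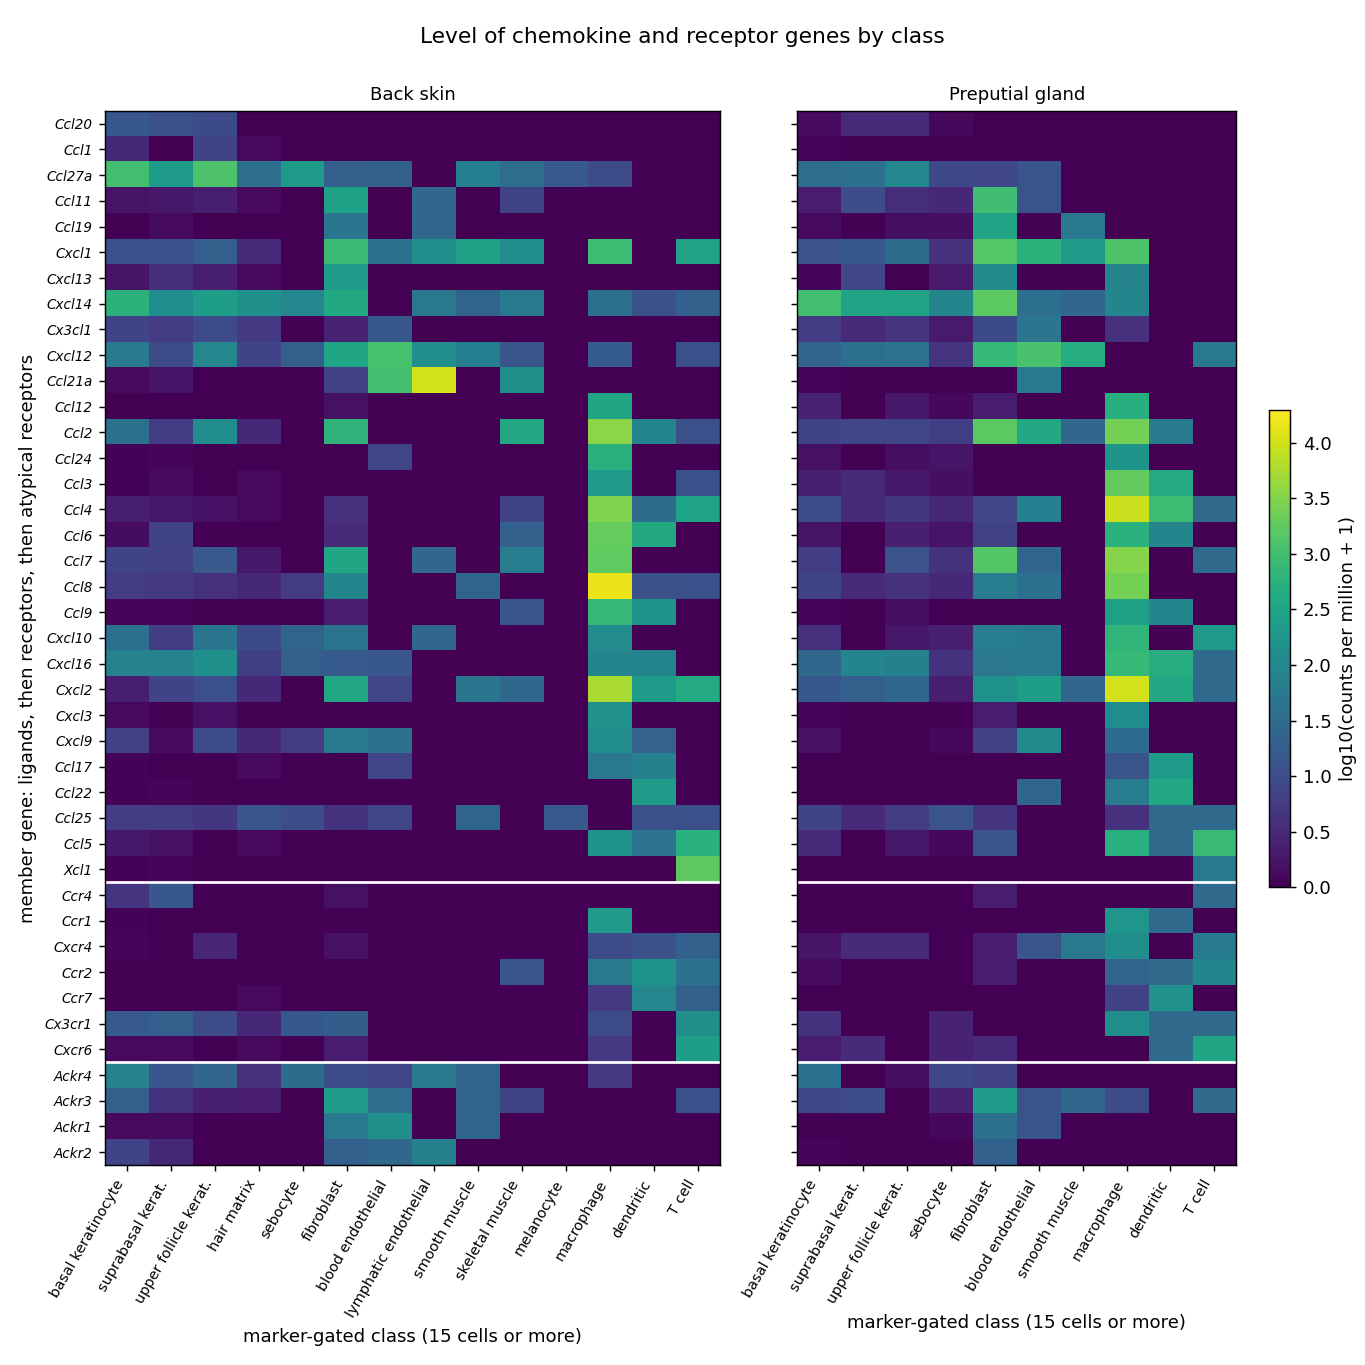
Level of 41 members with at least 30 UMIs in either tissue (rows) in each marker-gated class of at least 15 cells (columns) in back skin (left) and PG (right), as log10 of CPM plus 1, with white lines between ligands, receptors and atypical receptors. Macrophages carry the greatest number of bright ligand cells in both tissues, Ccl27a is bright across skin keratinocytes and dim in PG, and Ccl21a is brightest in the lymphatic endothelial cells of skin.

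Per UMI of the class, macrophages had the highest ligand level in both tissues. They led 15 of the 39 members with a leading class in skin and 19 of the 37 in PG. Leading classes were not counted over all genes, so no share stands beside these counts. The summed ligand level of macrophages was 34471 CPM [33727, 35228] in skin and 34572 CPM [33940, 35212] in PG. By total, basal keratinocytes held more ligand UMIs than macrophages in skin (19335 and 8150) and fewer in PG (6552 and 11403). In skin, 19 of 41 members tested were at least 4-fold higher in macrophages than in all other cells, against 5.28% of all genes, and in PG 23 of 37 were, against 6.62% of all genes. Fibroblasts came next, with 12 members past this 4-fold mark in skin (10% of all genes) and 10 in PG (10.8% of all genes). In T cells 6 members passed it in skin (3.57% of all genes) and 3 in PG (1.84% of all genes), with Ccl5 and Cxcr6 in both. Blood endothelium had 4 in skin (4.99% of all genes) and 4 in PG (6.35% of all genes), with Cxcl9 and Cxcl12 in both. Ccl21a also passed in both, but in PG its 5 UMIs came from 1 cell, and whether lymphatic cells entered this class was not tested. Of the epithelial classes, only basal cells, upper follicle cells and sebocytes were tested for this mark. Suprabasal, hair matrix, dendritic and lymphatic endothelial cells were not, and suprabasal cells held 76 of the 118 skin UMIs of Ccr4. In the epithelial classes tested, few members passed: Ackr4 and Ccl27a in skin basal cells (1.1% of all genes), Ackr4 in PG basal cells (1.58% of all genes), Ccl1 in skin upper follicle cells (1.04% of all genes) and Ccl27a in PG upper follicle cells (2.56% of all genes). The Ccl1 value rests on 10 UMIs in 4 cells, and basal cells held 22 of its 33 skin UMIs. The mark set no minimum of cells. In skin T cells 1 cell held 41 of the 42 Cxcl2 UMIs. In skin macrophages 1 cell held 28 of the 29 Cxcl9 UMIs, and 1 cell held all 12 Ccl17 UMIs. Sebocytes had 0 of 41 in skin (1.93% of all genes) and 0 of 37 in PG (1.54% of all genes).

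The ligand total differed between tissues in other classes. In fibroblasts it was 3716 CPM in skin and 8725 CPM in PG, a log2 ratio of 1.23 [1.18, 1.28], while in basal keratinocytes it was 1846 and 1163 CPM, a log2 ratio of -0.67 [-0.71, -0.63]. Upper follicle keratinocytes had 1987 CPM in skin and 638 CPM in PG. Sebocytes had 397 CPM [317, 491] in skin and 146 CPM [134, 159] in PG, the lowest ligand level of any PG class shown. The signalling receptors were highest in leukocytes, with 503 and 606 CPM in macrophages, 392 and 360 CPM in dendritic cells and 478 and 795 CPM in T cells (skin and PG). The 4 atypical receptors had the opposite distribution: 304 and 301 CPM in fibroblasts, 105 and 43.9 CPM in basal keratinocytes, and 1 and 3 UMIs in all macrophages. Blood endothelium had 213 CPM in skin and 23.8 CPM in PG (31 and 2 UMIs), and lymphatic endothelium of skin had 128 CPM (5 UMIs).

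**Figure D2:**
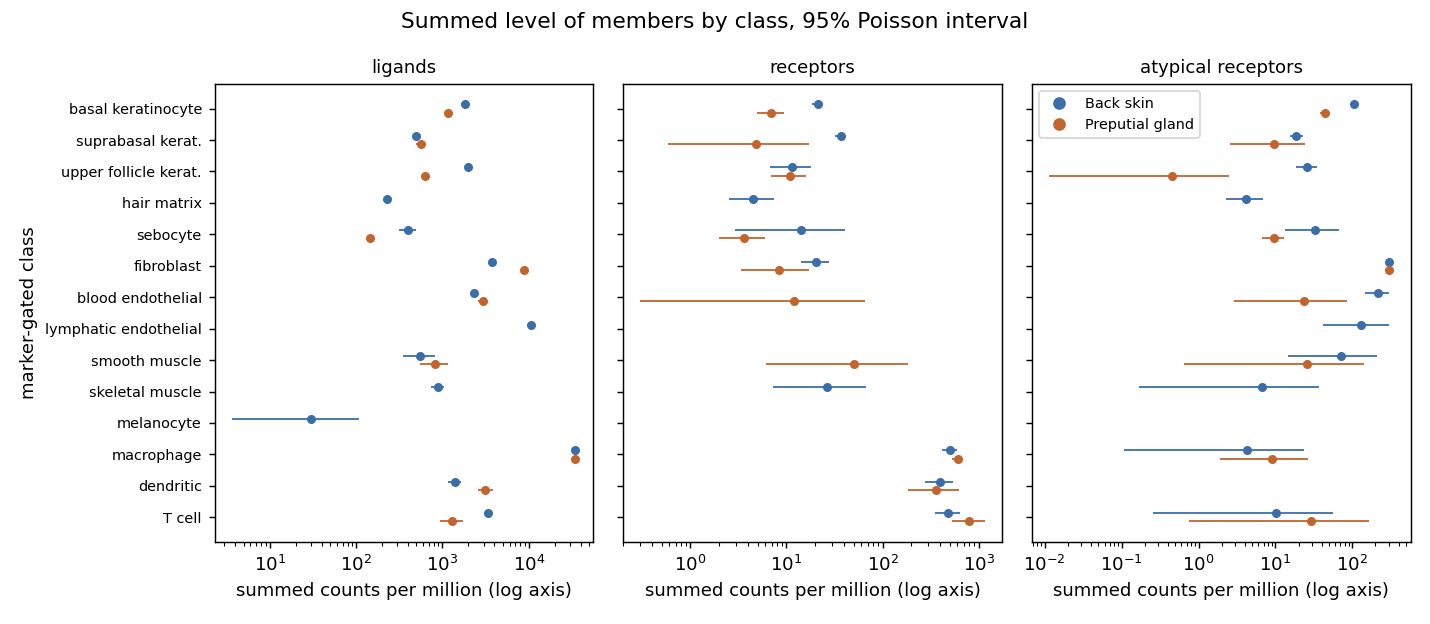
Summed CPM of ligands (left), signalling receptors (middle) and atypical receptors (right) by class on a log axis, with exact 95% Poisson intervals, for back skin (blue) and PG (orange). Ligands peak in macrophages at nearly the same value in both tissues, receptors in leukocytes and atypical receptors in fibroblasts, and a point is missing where a class had no UMI or under 15 cells.

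Among ligands of the epithelium, Ccl27a, which attracts skin-homing T cells through Ccr10, was lower in PG than in skin in each epithelial class compared. It had 14353 UMIs in 3626 skin cells and 509 UMIs in 341 PG cells. In skin its level was 984 CPM in basal, 1233 CPM in upper follicle and 217 CPM in suprabasal keratinocytes, and 220 CPM in sebocytes. In PG the same classes had 35.2, 96.7, 35.8 and 7.97 CPM. The log2 ratios of PG over skin were -4.81 [-5.02, -4.60] in basal, -3.67 [-3.88, -3.47] in upper follicle, -2.60 [-3.44, -1.87] in suprabasal cells and -4.78 [-5.49, -4.10] in sebocytes. With each cell thinned to 1000 UMIs, 48.7% [47.1, 50.3] of basal cells had a Ccl27a UMI in skin and 3.57% [2.78, 4.50] in PG, and without thinning 68.4% and 8.50% had one. The corresponding share in fibroblasts, taken as the background, was 1.83% in skin at a median of 1791 UMIs per cell and 0.894% in PG at 1332, so the PG basal share was small but above it. Ccl27a accounted for 53.3% of all ligand UMIs of skin basal cells and for 3.02% of those in PG. Its receptor Ccr10 had 10 and 6 UMIs in the cells of skin and PG.

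The gene lies on the minus strand of chromosome 4 at chr4:41769467-41774247 (GRCm38). All its UMIs were assigned to this identifier, and the 2 further identifiers of the same symbol, on unplaced scaffolds, had none. Its copy Ccl27b had 3 UMIs, and since reads shared by near-identical copies may be dropped in counting, the level of the Ccl27a sequence family is uncertain to that extent. RefSeq promoter windows were found for 45 of the 60 members, and 250 bases before the start were searched on both strands for TGACTCA, the letters bound by AP-1 factors such as Fos and Jun. They occur in 5 members (Ccl27a, Ccl27b, Ccr3, Ccr4 and Cxcl10) and in 4.46% of all 32851 promoters. One of the 3 listed Ccl27a windows, chr4:41770213-41770462 on the minus strand, is shown because the gene was lower in PG in all 4 classes, with the match in capitals 77 bases before its start. This start is that of an internal RefSeq transcript, since the window lies inside the span of the gene given above. A match describes letters and is not evidence of binding.
Ccl27a: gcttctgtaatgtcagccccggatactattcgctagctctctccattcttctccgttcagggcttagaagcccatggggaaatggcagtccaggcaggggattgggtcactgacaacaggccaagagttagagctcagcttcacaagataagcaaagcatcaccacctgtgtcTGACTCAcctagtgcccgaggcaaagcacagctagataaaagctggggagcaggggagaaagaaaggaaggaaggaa

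Cxcl14, a homeostatic ligand of epithelium and stroma, was the most counted ligand of basal and upper follicle keratinocytes and sebocytes in PG. In basal keratinocytes it was at 585 CPM [571, 600] in skin and 999 CPM [973, 1026] in PG (log2 ratio 0.77 [0.72, 0.82]), and it made up 31.7% and 85.9% of the ligand UMIs of that class. Suprabasal cells had 121 and 327 CPM. Sebocytes did not differ beyond the interval, with 98.1 CPM in skin and 90.2 CPM in PG (log2 ratio -0.12 [-0.76, 0.59]). In skin basal cells, 28.9% of cells with Ccl27a had Cxcl14 too, against 37.6% of those without it, after thinning.

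Across the basal class, 22 members had the 20 UMIs needed for a ratio between tissues. Of these, 3 were at least 2-fold higher in PG (17.7% of all genes) and 13 at least 2-fold higher in skin (18.3% of all genes), and the median log2 ratio was -1.36 for members and 0.08 for all genes. Besides Ccl27a, those higher in skin were the inflammatory ligands Ccl2, Cxcl9, Cxcl10 and Ccl20, together with Ccl1, Cxcl12, Cxcl16, Cx3cr1, Ccr4 and 3 atypical receptors. Cxcl10, an interferon-induced ligand of Cxcr3, was at 36.1 CPM in skin and 3.02 CPM in PG, and Ccl2, which recruits monocytes, at 37.9 and 6.21 CPM. Cxcl16, a membrane-bound ligand of Cxcr6, was at 80.1 and 27.5 CPM (log2 ratio -1.54 [-1.80, -1.29]). Ccl20, the ligand of Ccr6, had 145 UMIs in skin basal cells and 2 in PG, but 65 of the 145 came from a single cell and only 19 cells had any. The 3 members higher in PG were Cxcl2, Ccl4 and Ccl5, all led by leukocytes, with 14.4, 8.52 and 2.31 CPM in PG basal cells, and 31 of the 81 Cxcl2 UMIs were in 1 cell. Cxcl2 and Ccl4 were at 165 and 184 CPM in PG free RNA, read from barcodes of at most 50 UMIs, against 68.6 and 31.2 CPM in skin. Markers of mast cells, none of which passed the gate, had in PG cells 1.62% of their level in free RNA and in skin cells 1.85%. The part of free RNA in these 3 ratios was not tested.

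Genes of immediate stress response moved with the same class. The 11 listed genes, among them Fos, Jun and Atf3, summed to 9015 CPM in skin basal cells and 1033 CPM in PG. All 11 were at least 2-fold higher in skin (18.3% of all genes). Within the skin basal class, cells above the median of this list had 56.8 CPM of Ccl2 against 13.7 CPM in those at or under it, and 1074 against 870 CPM of Ccl27a. Cxcl14 went the other way, with 471 against 732 CPM. A list of 14 cytokines and NF-κB or interferon response genes known to induce chemokines was at 1060 CPM in skin and 281 CPM in PG. Of its 8 tested genes, 3 were at least 2-fold higher in skin (18.3% of all genes) and none in PG (17.7% of all genes). The part of dissociation or of these genes in the basal ratios was not tested.

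**Figure D3:**
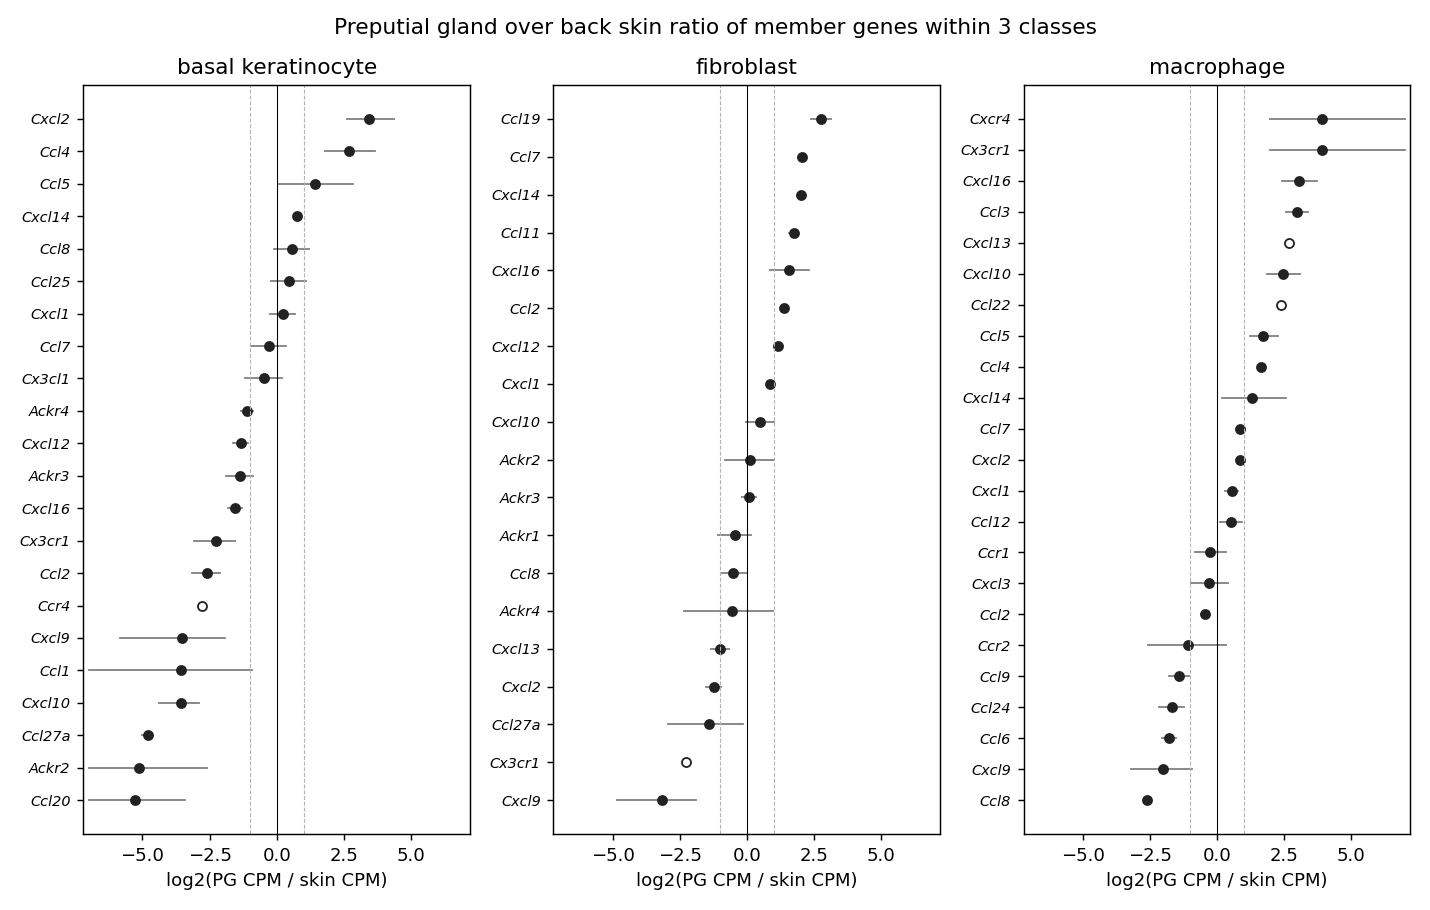
PG over skin log2 ratio of CPM for members with at least 20 UMIs in basal keratinocytes (left), fibroblasts (middle) and macrophages (right), with exact 95% intervals cut at 7 and dashed lines at 2-fold. Open circles have no UMI in 1 tissue and mark the ratio at the floor of 3 counts. In basal cells 13 of 22 points lie left of the lower dashed line, while fibroblasts and macrophages have points past both lines.

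The most counted ligands of fibroblasts were Cxcl1 (22.0% of ligand UMIs) and Ccl2 (17.1%) in skin and Ccl2 (19.2%) and Cxcl14 (18.6%) in PG, where Cxcl1 came next. Of 19 members with enough UMIs, 7 were at least 2-fold higher in PG (9.01% of all genes) and 5 in skin (10.1% of all genes). Ccl19, a ligand of Ccr7 that guides T cells and dendritic cells, was at 47.2 CPM in 61 skin fibroblasts and at 319 CPM in 130 PG fibroblasts (log2 ratio 2.76 [2.40, 3.13]). Ccl11 (eotaxin), a ligand of Ccr3, was at 289 and 967 CPM (1.74 [1.58, 1.91]), Cxcl14 at 407 and 1627 CPM (2.0 [1.87, 2.13]) and Cxcl12, the ligand of Cxcr4 and Ackr3, at 333 and 750 CPM (1.17 [1.01, 1.33]). Ccl7 and Ccl2, neighbouring monocyte attractants on chromosome 11, were at 334 and 1391 CPM and at 636 and 1676 CPM. Cxcl16 was at 16.5 and 49.2 CPM.

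On the skin side, the neutrophil attractant Cxcl2 was at 374 CPM in skin and 160 CPM in PG fibroblasts, and the B cell attractant Cxcl13 at 232 and 115 CPM. Cxcl9 had 99 UMIs in skin fibroblasts and 5 in PG, of which 52 came from 1 skin cell. Ccl27a and Cx3cr1 were the other 2, with 35 and 32 UMIs in skin. Atypical receptors differed less: Ackr3, which scavenges Cxcl12, was at 224 and 236 CPM (log2 ratio 0.08 [-0.17, 0.33]), Ackr1 at 52.7 and 38.4 CPM and Ackr2, a scavenger of inflammatory CC ligands, at 18.7 and 20.4 CPM, all 3 with intervals that include equality.

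Some fibroblast ligands were found in the same cells. After thinning, 55.6% of skin fibroblasts with Ccl2 also had Ccl7, against 6.34% of those without, and in PG the shares were 72.9% and 6.70%. Cxcl1 was found with Ccl2 in a like manner (64.8% against 12.1% in skin, 59.4% against 11.4% in PG). Cxcl14 was likewise found in 29.0% of skin fibroblasts that had Cxcl12 and 15.8% of the rest, and in 49.0% and 25.1% in PG, whereas it was found in 13.9% of skin and 22.9% of PG fibroblasts with Ccl2, against 19.6% and 35.9% of those without. These are shares of cells in 1 library each and depend on detection.

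The levels of several ligands differed with the stress genes. In PG, fibroblasts above the median of the stress list had 2469 CPM of Ccl2 against 984 CPM in the rest, while Cxcl14 was at 530 against 2585 CPM, Cxcl12 at 409 against 1047 CPM and Ccl11 at 669 against 1227 CPM. In skin Ccl2 was at 983 against 291 CPM and Cxcl1 at 1398 against 243 CPM, with Ccl11 (303 and 275 CPM) and Cxcl12 (354 and 312 CPM) within counting error. The stress list as a whole was at 5574 CPM in skin and 8454 CPM in PG fibroblasts, and its part in the tissue ratios was not tested. The filter on cells also mattered here. PG fibroblasts had few UMIs (median 1332), and with at least 2000 UMIs and 1000 genes 321 skin and 50 PG fibroblasts remained, among which Ccl2 (log2 ratio -1.0) and Cxcl1 (-4.42) were lower in PG, and Cxcl13 was at 0.05, whereas Ccl11 (1.53), Cxcl12 (2.10) and Cxcl14 (3.06) stayed higher in PG.

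In macrophages the ligand total did not differ beyond its interval, while single ligands did. Of 24 members tested, 10 were at least 2-fold higher in PG (12.4% of all genes) and 6 in skin (19.6% of all genes). Ccl8, a monocyte and Ccr8-dependent attractant, was the most counted member of skin macrophages, with 3580 UMIs in 86 of 117 cells, or 15142 CPM, and 43.9% of their ligand UMIs. In PG it had 815 UMIs in 48 of 155 cells, or 2471 CPM (log2 ratio -2.62 [-2.73, -2.51]). After thinning, 70.9% [61.8, 79.0] and 29.0% [22.0, 36.9] of macrophages had a Ccl8 UMI, against 0.401% and 0.945% of basal cells. Ccl6, Ccl9 and Ccl24 were lower in PG as well, at 1958 and 564 CPM, 749 and 279 CPM, and 537 and 167 CPM. Cxcl9 also counted among the 6, but 28 of its 29 skin UMIs were in 1 cell and the log2 ratio was 2.12 without the top cell of each tissue, and Ccr2 had 12 and 8 UMIs.

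The members higher in PG macrophages included 3 inflammatory CC ligands. Ccl3 was at 233 CPM in skin and 1816 CPM in PG (2.96 [2.56, 3.39]), Ccl4 at 2935 and 9147 CPM (1.64 [1.52, 1.76]) and Ccl5 at 161 and 531 CPM (1.72 [1.21, 2.27]). Cxcl16 was at 93.1 CPM in 18 skin cells and 764 CPM in 105 PG cells (3.04 [2.41, 3.74]), and Cxcl10 at 118 and 646 CPM (2.45 [1.87, 3.07]). The receptors Cx3cr1 and Cxcr4 each had 2 UMIs in skin and 42 UMIs in 33 PG macrophages. Cxcl14 was at 38.1 and 94.0 CPM, and Cxcl13 and Ccl22 had 27 and 22 UMIs in PG and none in skin, which puts them at least 6.45-fold and at least 5.26-fold higher in PG at a floor of 3 counts per library. Of these UMIs, 14 and 13 came from 1 cell each, without which the log2 bounds fall from 2.69 to 1.63 and from 2.39 to 1.10. Ccr1 (207 and 173 CPM, log2 ratio -0.26 [-0.84, 0.32]) did not differ beyond its interval, and Ccl2 was slightly lower in PG (3502 and 2559 CPM, -0.45 [-0.59, -0.31]).

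Neighbouring genes thus differed in opposite directions. On chromosome 11, Ccl3, Ccl4 and Ccl5 were higher and Ccl6 and Ccl9 lower in PG macrophages within 1 cluster of 5 genes over 139 kb, and in the cluster of 6 genes over 270 kb Ccl7 was higher (1772 and 3241 CPM, log2 ratio 0.87 [0.71, 1.04]) and Ccl8 lower, but with at least 2000 UMIs and 1000 genes per cell Ccl7 was lower too (-0.93). The Cxcl1, Cxcl2 and Cxcl3 genes on chromosome 5 were at 909 and 1322 CPM, 5625 and 10145 CPM, and 148 and 121 CPM, and none of the 3 differed by 2-fold.

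These 3 neutrophil attractants hold the same letters in their promoter windows. GGGA and TTCC with any 2 bases between them, the type of sequence bound by NF-κB, were searched on both strands of the 250 bases before each start. They are in 6 members (Cxcl1, Cxcl2, Cxcl3, Cxcl10, Ccl1 and Ccr3) and in 1.21% of all promoters. The windows of Cxcl1 (chr5:90890995-90891244), Cxcl2 (chr5:90903649-90903898) and Cxcl3 (chr5:90785851-90786100), all on the plus strand of GRCm38, and of Cxcl10 (chr5:92348890-92349139, minus strand) are shown to compare the matched letters, in capitals. In the first 3 the match on one strand overlaps that on the other, so 11 letters are in capitals, and they are the same 11 in all 3. The matches start 71, 97, 73 and 159 bases before the gene start, and none of them overlaps the TGACTCA match of Cxcl10.
Cxcl1: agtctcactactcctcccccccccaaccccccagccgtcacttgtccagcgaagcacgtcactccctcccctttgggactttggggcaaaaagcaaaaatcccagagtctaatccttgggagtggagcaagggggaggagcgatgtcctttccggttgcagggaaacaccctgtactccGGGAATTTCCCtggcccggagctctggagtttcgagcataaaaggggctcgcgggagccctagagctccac
Cxcl2: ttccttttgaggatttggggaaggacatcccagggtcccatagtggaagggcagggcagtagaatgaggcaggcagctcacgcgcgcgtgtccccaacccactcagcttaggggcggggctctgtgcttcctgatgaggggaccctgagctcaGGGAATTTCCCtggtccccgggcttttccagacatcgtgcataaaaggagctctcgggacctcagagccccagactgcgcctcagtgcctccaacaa
Cxcl3: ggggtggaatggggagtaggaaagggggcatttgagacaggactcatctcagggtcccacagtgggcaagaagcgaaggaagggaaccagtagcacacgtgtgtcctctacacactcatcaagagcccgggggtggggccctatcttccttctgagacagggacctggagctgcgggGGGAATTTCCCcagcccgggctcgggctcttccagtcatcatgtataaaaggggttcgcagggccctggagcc
Cxcl10: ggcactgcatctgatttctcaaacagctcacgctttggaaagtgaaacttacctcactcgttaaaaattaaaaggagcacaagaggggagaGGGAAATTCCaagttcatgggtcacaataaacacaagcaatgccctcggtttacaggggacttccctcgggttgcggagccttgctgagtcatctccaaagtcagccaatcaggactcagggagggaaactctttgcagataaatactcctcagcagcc

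Several members differed between macrophages with and without markers of resident macrophages (Mrc1, Cd163, Folr2 and Lyve1). At least 1 UMI of this list was found in 99 of 117 skin macrophages (84.6%) and in 63 of 155 PG macrophages (40.6%). Mrc1 and Cd163 also belong to the macrophage gate. In both tissues Ccl8, Ccl2 and Ccl7 were higher in cells with the list. Ccl8 was at 18180 CPM with it and 752 CPM without it in skin, and at 8067 and 21.8 CPM in PG. Ccl7 was at 2126 and 97.0 CPM in skin and at 10547 and 43.6 CPM in PG. Cx3cr1 and Cxcr4 had the reverse pattern in PG, with 157 and 166 CPM in cells without the list and 59.8 and 39.8 CPM in cells with it.

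Among cells with the list, Ccl8 was lower in PG (log2 ratio -1.17 [-1.28, -1.06]), as was Ccl6 (-0.86 [-1.15, -0.57]), while Ccl9 (-0.28 [-0.72, 0.14]) and Ccl24 (-0.25 [-0.74, 0.22]) did not differ beyond their intervals. Ccl2, which was lower in PG over the whole class, was higher there within these cells (0.96 [0.82, 1.11]), and Ccl7 (2.31 [2.15, 2.48]), Ccl12 (1.56 [1.14, 1.98]), Ccl3 (3.69 [3.27, 4.12]), Ccl4 (2.29 [2.16, 2.42]), Cxcl10 (2.26 [1.61, 2.95]) and Cxcl16 (3.09 [2.20, 4.09]) were also higher in PG. Among cells without the list, 18 in skin and 92 in PG, Ccl2 (-1.72 [-2.59, -0.82]), Ccl9 (-2.17 [-3.05, -1.27]), Ccl8 (-5.11 [-6.83, -3.73]) and Ccl6 (-1.07 [-1.78, -0.31]) were lower in PG, and Ccl7 had 4 and 10 UMIs. The split rests on detection and was made after the values had been seen. Median depth was 1826 UMIs per cell with the list and 2210 without it in skin, and 1385 and 2399.5 in PG.

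**Figure D4:**
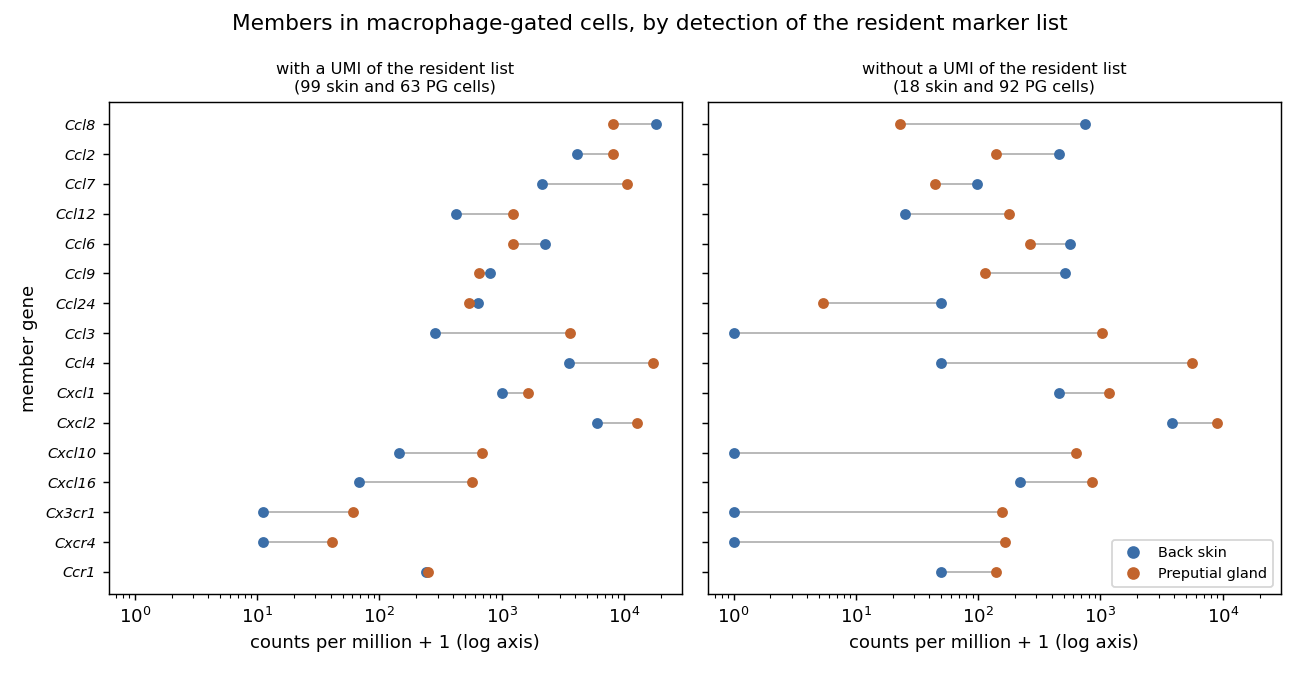
CPM plus 1 on a log axis of 16 members in macrophage-gated cells with (left, 99 skin and 63 PG cells) and without (right, 18 skin and 92 PG cells) a UMI of the resident macrophage list, for back skin (blue) and PG (orange). Ccl8, Ccl2 and Ccl7 lie further right in the left panel than in the right one in both tissues, and Ccl3, Ccl4, Cxcl10 and Cxcl16 lie further right in PG than in skin in both panels.

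Other genes moved with the macrophage class. The inducer list was at 1586 CPM in skin and 8062 CPM in PG. Of its 9 tested genes, 5 were at least 2-fold higher in PG (12.4% of all genes) and none in skin (19.6% of all genes). Il1b was at 216 and 3059 CPM and Tnf at 123 and 928 CPM. The stress list was at 7854 and 13698 CPM. Within PG, macrophages above the median of the stress list had 461 CPM of Ccl8 and 604 CPM of Ccl2, against 5161 and 5175 CPM in the rest. In skin Ccl8 went the same way (7701 against 24455 CPM) and Ccl2 the other way (4505 against 2247 CPM). Of 17 tested genes of receptor signalling, 4 were at least 2-fold higher in PG (12.4% of all genes) and 2 in skin (19.6% of all genes). Among those higher in PG was Rgs1, which shortens G protein signals, at 541 and 2065 CPM. The Langerhans marker Cd207 was at 292 CPM in the skin macrophage class and 87.9 CPM in PG. The monocyte genes Ly6c2, Plac8 and Vcan summed to 135 CPM in skin and 3.03 CPM in PG, and only 1 of them had the UMIs needed for a ratio. The part of these genes and cells in the ratios was not tested. With at least 2000 UMIs and 1000 genes, 29 and 33 macrophages remained, Ccl8 was still lower (log2 ratio -3.79) and Ccl3 (1.93) and Cxcl16 (2.29) still higher in PG, but Ccl7 reversed (-0.93), 3 members rather than 10 were at least 2-fold higher in PG and the summed ligand level was lower there (-0.75).

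T cells of skin were marked by Xcl1, which attracts cross-presenting dendritic cells through Xcr1. It had 168 UMIs in 40 of 64 skin T cells (1710 CPM) and 2 UMIs in 1 of 20 PG T cells (58.9 CPM), a log2 ratio of -4.86 [-7.92, -2.98]. Over all cells Xcl1 had 205 UMIs in skin and 43 in PG, of which 35 and 41 were in cells outside the classes, and 30 of the 41 were in 1 cell. In skin it was at 2374 CPM in the 46 T cells with a UMI of γδ T cell receptor genes and 369 CPM in the 18 without. Ccl5, a product of cytotoxic T cells, was at 122 and 1415 CPM there. In PG Ccl5 went the other way, at 1676 CPM in the 4 T cells with such a UMI and 491 CPM in the 16 without. Of the Ccl5 UMIs of T cells, 24 of 54 in skin and 12 of 28 in PG were in 1 cell. The γδ list was at 2484 CPM in skin and 294 CPM in PG T cells, and only 4 PG T cells had any of it. The αβ T cell receptor genes Trac, Trbc1 and Trbc2 were lower in PG too, at 1588 and 736 CPM (log2 ratio -1.11 [-1.78, -0.49]). Median T cell marker content was 168 and 49.5 per 10000 UMIs, so the class was not equal in marker level between tissues. Trdc and Tcrg-C1 of the γδ list and the αβ genes also belong to the T cell gate. The part of these differences in the ratios was not tested. Of 6 members tested, 4 were at least 2-fold higher in skin (22.5% of all genes) and none in PG (14.4% of all genes), but 41 of 42 Cxcl2 UMIs in skin T cells came from 1 cell, as did all 29 Cxcl1 UMIs. Cxcr6, a receptor of tissue-resident T cells and partner of Cxcl16, was led by T cells in both tissues, at 244 CPM [157, 364] and 353 CPM [183, 617], and Ccl5 was at 550 and 824 CPM, neither beyond the interval of the ratio. Xcr1 had 6 and 2 UMIs.

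Dendritic cells were few, and several of their members rested on 1 to 3 cells. The class includes Langerhans cells, and the Langerhans genes Cd207, Mfge8 and Epcam summed to 3253 CPM in skin and 180 CPM in PG. Clec9a, Batf3 and Wdfy4, genes of cross-presenting dendritic cells, summed to 191 and 629 CPM, and only 1 of them had the UMIs needed for a ratio. Cd207, Clec9a, Batf3 and Wdfy4 also belong to the dendritic gate. In this class 60% of skin and 56.25% of PG cells sat at the smallest number of markers that passed. The class was thus not equal in these genes between tissues, and the part of this in the ratios was not tested. Ccl22, a ligand of Ccr4, had 22 UMIs in 1 of 40 skin dendritic cells and 13 in 2 of 16 PG ones. Of 5 members tested, 2 were at least 2-fold higher in PG (12.2% of all genes) and 1 in skin (21.5% of all genes). Cxcl16 was at 84.8 CPM in 4 skin cells and 480 CPM in 7 PG cells, whereas 26 of 31 Ccl4 UMIs in PG and 30 of 38 Ccl6 UMIs in skin came from 1 cell each. Ccr7, the receptor that leads dendritic cells to lymph nodes, was at 95.4 CPM in 3 skin cells.

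Cxcl12 was the most counted ligand of blood endothelium in both tissues and Ccl21a that of lymphatic endothelium in skin. Ccl21a, which guides Ccr7-bearing cells into lymphatics, had 397 UMIs in 12 of 16 lymphatic endothelial cells of skin (10193 CPM [9215, 11247]), 96.1% of the ligand UMIs of that class. PG had 1 such cell, so the class was not compared. In blood endothelial cells Ccl21a was at 1066 and 59.5 CPM, from 12 and 1 cells. Of the skin lymphatic cells, 56.25% sat at the smallest number of markers that passed. Whether lymphatic cells entered the blood class was not tested, so its Ccl21a level may not be that of blood endothelium. Cxcl12 did not differ beyond its interval there, at 1114 and 1178 CPM (log2 ratio 0.08 [-0.29, 0.45]), in 34 of 68 skin and 35 of 51 PG cells. Of 6 members tested in blood endothelium, 3 were at least 2-fold higher in PG (15.1% of all genes), namely Cxcl1, Cxcl2 and Ccl2, and 2 in skin (11.4% of all genes), Ccl21a and Ackr1. The Cxcl2 value rests on 1 skin and 21 PG UMIs, 15 of them in 1 cell, and 18 of the 33 Ccl2 UMIs in PG were in 1 cell. Ackr1, the venular receptor that carries chemokines across the endothelium, had 21 UMIs in 10 skin cells and 1 UMI in PG. Ccr7 had 36 UMIs in skin, of which 22 were in 1 cell, and 11 in PG.

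Sebocytes, the cells the study was designed for, held little of the module. In skin 45 cells had 85 ligand UMIs, of which 47 were Ccl27a and 21 Cxcl14. In PG 696 cells had 568, of which 351 were Cxcl14, 46 Ccl25 and 31 Ccl27a. Ccl25, a ligand of Ccr9 known from thymus and gut, was led by sebocytes in PG (11.8 CPM, in 44 cells), with an interval that overlapped that of basal cells (6.75 CPM), and by hair matrix cells in skin (12.8 CPM, in 40 cells). In sebocytes it did not differ beyond its interval between tissues, at 9.35 CPM from 2 UMIs in skin (log2 ratio 0.34 [-1.60, 3.43]). Ccl28 had 14 UMIs in PG, of which 11 were in sebocytes. Of 5 members tested, 2 were at least 2-fold higher in skin (17.2% of all genes) and none in PG (15.8% of all genes). These were Ccl27a and Ackr4, the latter with 7 UMIs in skin and 30 in PG (32.7 and 7.71 CPM).

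Several receptors were found in cells where they are less known. Ccr4, the receptor of Ccl17 and Ccl22 on T cells, had 76 UMIs in 64 suprabasal and 38 UMIs in 36 basal cells of skin, never more than 3 in a cell, against 2 UMIs in all PG cells. Ccr9 had 14 of its 17 skin UMIs in suprabasal cells, and Cxcr2, the receptor of Cxcl1 and Cxcl2 on neutrophils, had 15 of its 18 PG UMIs in 14 upper follicle cells. Cx3cr1 had 162 UMIs in only 25 skin basal cells and 107 UMIs in 12 suprabasal cells, up to 45 in 1 cell, so it was held by few cells there, whereas in T cells it was at 132 CPM in 10 of 64. Among atypical receptors Ackr4, which scavenges Ccl19, Ccl21 and Ccl25, was led by basal cells in both tissues, at 78.2 CPM in 678 cells of skin and 36.0 CPM in 185 cells of PG (log2 ratio -1.12 [-1.35, -0.89]), and these cells held 79.1% and 75.5% of its UMIs. In upper follicle cells it had 39 UMIs in skin and 1 in PG. That class had 11 members tested, of which 6 were at least 2-fold higher in skin (18.8% of all genes) and 1 in PG (13.1% of all genes). Of 18 tested in suprabasal cells, 5 were at least 2-fold higher in skin (22.8% of all genes) and 4 in PG (15.8% of all genes). The interval excluded equality for 1 member higher in skin, Ccl27a, and for 3 higher in PG, Cxcl2, Cxcl12 and Cxcl14. Ccl20, Ccl25 and Cx3cl1 had 1 UMI each in PG, and Ccl6, Ccl7 and Cxcl10 had none and gave no direction.

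Ligands and their receptors were led by the same class in some pairs and by different classes in others. Of 31 textbook pairs considered, 30 had both genes in the matrices. Both partners had a leading class in 16 pairs in skin and 14 in PG, and the class was the same in 3 and 6 of these. Receptors with few UMIs enter these counts: Cxcr2 had 11 in skin and 18 in PG, and Ccr10 and Ccr9 had 10 and 17 in skin. Their leading classes rest on those few UMIs, and no share for unrelated genes was computed. The shared class was the macrophage for Ccr1 with Ccl3, Ccl6 and Ccl9 in both tissues. In PG, Ccr2 was also led by macrophages, at 24.3 CPM, next to its ligands Ccl2, Ccl7 and Ccl12, whereas in skin dendritic cells led it at 170 CPM [96.9, 275]. This PG lead depends on the minimum of 5 UMIs in 3 cells. Ccr2 was also found in 3 of 20 T cells and 1 of 16 dendritic cells of PG, classes that missed the minimum and were not ranked. Of its 28 PG UMIs, 13 were in cells outside the classes. Cxcl16 and Cxcr6 paired T cells with upper follicle keratinocytes in skin (140 CPM of Cxcl16) and with macrophages in PG (764 CPM), but in both tissues the interval of the leading class overlapped that of the next, macrophages in skin (93.1 CPM) and dendritic cells in PG (480 CPM). In 10 pairs in skin and 13 in PG only the ligand had a leading class, as for Ccl27a with Ccr10 in PG, Ccl11 with Ccr3 (0 and 1 UMIs) and Cxcl13 with Cxcr5 (2 and 3 UMIs). Such low receptor counts were not distinguishable from absence at this depth. Leading classes describe where transcripts were highest among the classes that reached the minimum of UMIs and cells, and no interaction was scored.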

How the data were processed

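RNA of single cells from mouse back skin and preputial gland was measured in 1 library per tissue. The authors deposited unfiltered matrices of UMI counts per gene and barcode, made with Cell Ranger and the mm10 genome per the submitters' processing notes. The annotation release is not given in the sources used here. Counts were used as deposited. A barcode was kept as a cell if it had 500 or more genes and 1000 or more UMIs, of which no more than 10% were mitochondrial. The libraries shared no cell barcode, and their barcode lists had 77142 entries in common, 10.5% of those of PG. A cell needed at least 3 markers of a class (2 for dendritic cells). Among non-epithelial classes it also needed a lead of 2 markers over the next class. Related classes, such as blood and lymphatic endothelium, were separated by the larger share of their lists. Epithelial cells went to the epithelial class with the highest marker content relative to its mean over both tissues, with no lead needed. Cells that passed for an epithelial and another class, or for several non-epithelial classes without the lead, were left out of the classes (4.53% in skin, 4.19% in PG). These may include doublets, and a doublet score was an alternative.

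UMIs were summed per class. Levels have exact Poisson intervals, shares exact Clopper-Pearson intervals and ratios exact binomial intervals of the UMI split, all at 95%. A ratio needed 20 UMIs over both tissues. With no UMI in a tissue, the floor of 3 counts per library was used, and no call was made where that bound had no direction. Members with at least 30 UMIs in either tissue were described with values, except 1 that is not reported here by name, in the figures or in the pairs and that enters only sums and counts over members. Shares were compared after thinning to 1000 UMIs per cell. Members, markers and lists were chosen with earlier results of these data known. Promoters came from RefSeq on GRCm38.p6, and gene positions from GRCm38. The intervals and ratios were tested on simulated Poisson counts. These hold no clumping of UMIs in single cells, so the test does not cover the clumping seen here. Python 3.11.15, numpy 2.4.6, scipy 1.17.1, pandas 2.3.3, scikit-learn 1.9.0 and matplotlib 3.10.9 were used. Alternatives changed the cell filters, doublet removal, marker number, denominator, free RNA subtraction, UMI minimum and thinning.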

Additional observations from a re-analysis of the deposited data

Results flagged for a closer look

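Several members that differed between tissues by at least 2-fold in opposite directions in separate cell classes follow, and in each case the difference between the classes was not tested. Cxcl13 (fibroblasts and macrophages), Cxcl1 (blood endothelium and T cells) and Ackr3 (basal and suprabasal cells) also did so and are left out. Their ratio in the latter class was a bound at the floor or had an interval that includes equality. The log2 ratio of PG over skin of Ccl2 was 1.40 in fibroblasts and -4.13 in upper follicle keratinocytes. That of Cxcl16 was 3.04 in macrophages and -1.54 in basal keratinocytes, and that of Cxcl10 was 2.45 in macrophages and -5.67 in upper follicle keratinocytes. Cx3cr1 was at 3.91 in macrophages and -2.27 in basal keratinocytes, where 25 skin cells held it. Cxcl12 was at 2.69 in smooth muscle cells, from 3 and 18 UMIs, and -1.34 in basal keratinocytes. Cxcl2 was at 5.18 in blood endothelium, from 1 and 21 UMIs, and -1.23 in fibroblasts. In that endothelium 15 of the 21 UMIs were in 1 cell, and the ratio was 1.82 without the top cell of each tissue. Ccl4 was at 4.87 in dendritic cells and -3.42 in T cells, where 1 PG cell held its single UMI, and these were 3.89 and -1.32 without the top cells. For Cx3cr1 they were 3.19 and -3.13.

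Some members had most of their UMIs in cells that were in no class or in several. This held in skin for Ccl17 (51.1% of UMIs), Ccl22 (63.1%) and Ccr7 (63.9%), and in PG for Xcl1 (95.3% of 43 UMIs, 30 of them in 1 cell).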

How the results depend on the processing

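No paired analysis was possible because each tissue has 1 library. Of 366 values of the 37 named ratios under the alternatives, 308 stayed inside the main interval and 362 were not counted as reversed. A reversal was counted only where the main interval excluded equality, so a change of sign in the other ratios is not in this count. The 4 counted reversals came under the strict cell filter (1000 genes, 2000 UMIs): in fibroblasts Ccl2 (-1.0), Cxcl1 (-4.42) and Cxcl13 (0.055), and in macrophages Ccl7 (-0.93). That filter left 321 of 928 skin and 50 of 559 PG fibroblasts and 29 and 33 macrophages. Under it, 22 of 37 PG members kept their leading class, 3 members rather than 10 were at least 2-fold higher in PG macrophages, and the summed ligand log2 ratio was -0.55 in basal cells, 0.71 in fibroblasts and -0.75 in macrophages. This ratio was -0.61, 1.16 and -0.24 with 1 more marker, -0.75, 1.31 and 0.15 as a mean over cells, -0.54, 1.30 and 0.088 with the total taken without mitochondrial and ribosomal genes, and 0.11 in macrophages with at least 200 genes and 500 UMIs. With at least 50 UMIs for a ratio, 3 members were higher in skin fibroblasts and 5 in PG macrophages. Without thinning, 68.4% and 8.50% of skin and PG basal cells had Ccl27a. The alternative without the cell of most UMIs was chosen after seeing the data. With 1 library per tissue no alternative bears on the spread between mice.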

Other observations

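Genes that work with chemokines but carry other symbols were also counted. Pf4, a CXC chemokine outside the symbol rule, was at 3828 CPM in skin macrophages and 1307 CPM in PG macrophages. Ccrl2, a receptor-like protein that binds chemerin without known signalling, was at 186 and 540 CPM in the same class, and Rarres2, which encodes chemerin, at 1109 and 1306 CPM in fibroblasts.

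Among the members with few UMIs, Ccl28, a mucosal ligand of Ccr10, had 5 in skin and 14 in PG, Ccr8 had 1 and 6, and Cxcl5 had 2 and 11.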
